A study of Mus musculus with 20 samples.

Results

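The respiratory chain and the ATP synthase were followed gene by gene in mouse cerebellum. Members were all protein-coding genes whose symbol begins with Nduf (a, b, c, s or v and a digit), Uqcr, Cox4 to Cox8, Atp5, mt-Nd, mt-Co or mt-Atp, together with Sdha to Sdhd and mt-Cytb. The rule found 96 of the 29200 genes counted, of which 83 are encoded in the nucleus and 13 in the mitochondrial genome. The limit for testing, an average of 50 counts per library, was reached by 89 members, 79 nuclear and 10 mitochondrially encoded, among 12153 genes tested. The 7 members below it were mt-Nd3, mt-Nd4l, mt-Atp8, Cox4i2, Cox6a2, Cox7b2 and Cox8b. The rule used no measured value. By complex, the nuclear members were 35 genes of complex I, 4 of complex II, 8 of complex III, 19 of complex IV and 17 of complex V, and the mitochondrially encoded members were 7, 0, 1, 3 and 2 genes in the same order. Ndufa4 and Ndufa4l2 were placed in complex IV.

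Poly(A) RNA of the whole cerebellum of 20 male C57BL6/N mice was sequenced. WT/WT mice had wild-type Atxn3 in both alleles, and 304Q/304Q mice had 304 repeats knocked into both murine Atxn3 alleles, a model of spinocerebellar ataxia type 3 from 1 founder line made with zinc-finger nucleases, in which the repeat is an interrupted one. Each genotype had 5 mice at 2 months and 5 at 12 months, so that both the genotype at each age and the age in each genotype could be compared. Library totals lay between 11385380 and 27636687 counts. Nothing in the labels groups the mice by litter or processing day, and in whole tissue fewer cells of a type and less RNA per cell cannot be told apart. Atxn3 itself carries the expansion and was not deleted, so its level does not check the labels. It lay at 2 months between 239.9 and 332.1 normalized counts (WT/WT) and between 158.2 and 240.6 (304Q/304Q), a log2 fold change of -0.54 ± 0.11 (SE, adjusted p = 0.0916 in the quasi-likelihood test of edgeR, Benjamini-Hochberg adjusted over all tested genes) that did not pass.

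Complexes I to IV pass electrons from NADH and succinate to oxygen, all but complex II move protons out of the mitochondrial matrix, and complex V, the ATP synthase, lets them back to make ATP. The mitochondrial genome encodes the membrane core of complexes I, III, IV and V, while complex II and all other subunits come from nuclear genes whose promoters are known targets of the factors NRF1, GABPA of the ETS family, YY1 and SP1. Neurons with steady firing, Purkinje cells among them, depend on this chain for most of their ATP, so both genomes have to supply subunits that fit together.

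Promoters are shown because these factors' letters are a feature of the nuclear members that the rule did not use. RefSeq promoters of build GRCm38.p6, each from 250 bases before to 50 bases after a transcription start, were matched to 68 of the 83 nuclear members, which have 73 of the 32851 promoters of the table. Exact letters were searched on both strands, and none of the 4 motifs contains another. The NRF1 letters GCATGCGC were in 13.7% of the members' promoters and 2.71% of all promoters, the ETS letters CCGGAAG in 21.9% and 8.86%, the YY1 letters AAGATGGC in 13.7% and 2.75%, and the SP1 letters GGGCGG in 39.7% and 35.7%. Of the 10 members with the YY1 letters, 7 belonged to complex I and 3 to complex V. The promoters of 3 members that were higher at 12 months in WT/WT mice are printed 5′ to 3′, with the motif matches in capitals. Cox8a (chr19:7217567-7217866, minus strand) holds the ETS letters on the other strand at 2 places, Ndufa6 (chr15:82354242-82354541, minus strand) the NRF1 and the SP1 letters, and Cox5a (chr9:57520982-57521281, plus strand) the SP1 letters on the other strand at 2 places.
Cox8a: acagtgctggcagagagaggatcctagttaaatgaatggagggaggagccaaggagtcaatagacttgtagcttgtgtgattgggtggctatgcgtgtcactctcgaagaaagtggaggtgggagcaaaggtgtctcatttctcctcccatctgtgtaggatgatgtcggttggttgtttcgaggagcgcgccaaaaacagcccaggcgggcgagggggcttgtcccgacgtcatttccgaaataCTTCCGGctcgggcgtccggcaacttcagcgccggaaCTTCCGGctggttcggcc
Ndufa6: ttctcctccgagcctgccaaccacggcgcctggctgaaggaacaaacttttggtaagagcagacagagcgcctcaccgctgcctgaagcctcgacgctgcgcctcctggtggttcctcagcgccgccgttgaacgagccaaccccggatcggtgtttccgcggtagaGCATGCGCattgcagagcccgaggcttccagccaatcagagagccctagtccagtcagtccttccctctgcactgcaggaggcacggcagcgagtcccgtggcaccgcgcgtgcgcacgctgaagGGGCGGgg
Cox5a: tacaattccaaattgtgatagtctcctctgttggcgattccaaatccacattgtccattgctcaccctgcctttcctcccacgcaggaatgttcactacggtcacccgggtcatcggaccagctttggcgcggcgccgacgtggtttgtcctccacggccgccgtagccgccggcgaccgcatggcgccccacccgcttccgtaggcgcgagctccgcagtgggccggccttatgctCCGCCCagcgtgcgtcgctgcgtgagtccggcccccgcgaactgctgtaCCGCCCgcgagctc
Neither promoter of Atp5d nor that of Sdha held any of the 4 motifs, which says only that these letters are not in these windows.

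A second pair of sequences bears on what the mitochondrial counts can measure. Nuclear chromosome 1 carries a run of unprocessed pseudogenes copied from the mitochondrial genome (GRCm38, chr1:24611535-24616197). The first 100 bases of mt-Co2 (chrM:7013-7112, plus strand) and of its copy Gm28661 (chr1:24615466-24615565, minus strand) differ at 0 positions.
mt-Co2: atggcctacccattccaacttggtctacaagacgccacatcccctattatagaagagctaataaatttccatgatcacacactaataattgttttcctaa
Gm28661: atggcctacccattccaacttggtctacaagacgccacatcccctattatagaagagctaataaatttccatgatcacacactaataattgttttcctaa
Windows of the length of 1 read were therefore compared with all annotated nuclear transcripts. Of the windows of mt-Co2, 99.5% also occur in a nuclear transcript, and the same holds for 99.9% in mt-Co3, 99.5% in mt-Atp6, 98.5% in mt-Nd4l and 97.6% in mt-Nd3. These 5 genes had means of 185.4, 133.7, 204.2, 37.3 and 9.3 normalized counts (counts scaled to the mean effective library size). The genes mt-Nd1, mt-Nd5, mt-Nd6 and mt-Cytb had no such window and means of 124476, 113825, 43527 and 183458 normalized counts. Between them lay mt-Nd2 with 3.09%, mt-Co1 with 30.7% and mt-Nd4 with 60.7% of windows shared, at 89237, 329097 and 82682 normalized counts. For mt-Atp8, at 49.8 normalized counts, no window was found in an annotated transcript. The search covered annotated transcripts alone, not all of chromosome 1. In the mitochondrial genome mt-Atp8 begins between mt-Co2 and mt-Atp6, whose copies Gm28661 and Gm10925 are neighbours in the run. The stretch between these copies was not searched. How reads that match more than 1 place were counted is not given in the sources used here. The levels of mt-Co2, mt-Co3, mt-Atp6, mt-Nd3, mt-Nd4l and mt-Atp8 are therefore uncertain. The same holds in part for mt-Nd4 and mt-Co1. The 6 nuclear copies on chromosome 1 had means of 310.6 to 1231 normalized counts.

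**Figure D1:**
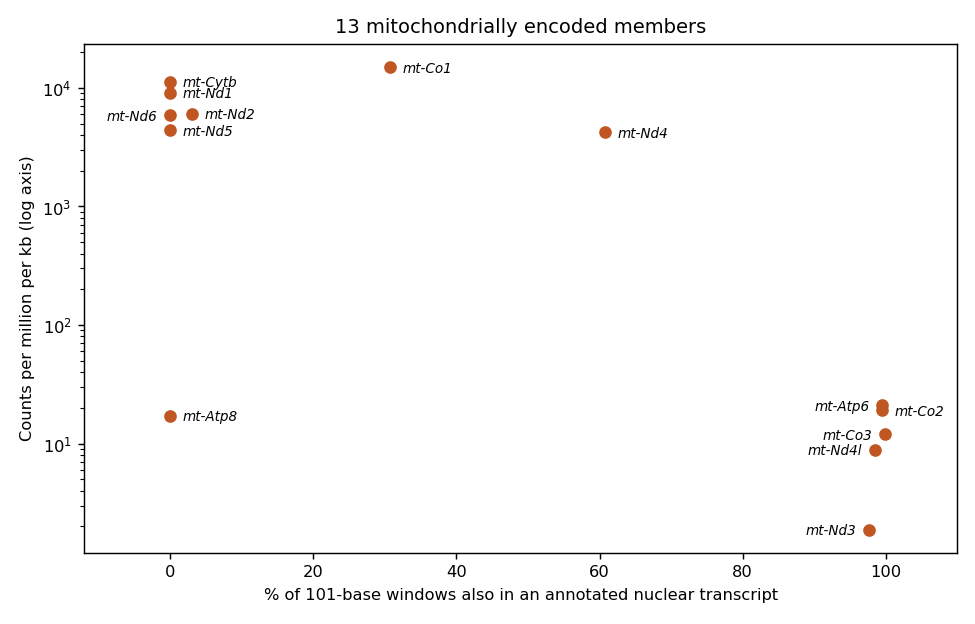
Level of the 13 mitochondrially encoded members (CPM per kilobase, log axis) against the percentage of their windows of 1 read length that also occur in an annotated nuclear transcript; each point is the mean over 20 mice of 1 gene. The 5 genes with at least 97.6% of windows shared lie below all others but mt-Atp8, which shares none with an annotated transcript.

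Levels between genes are compared only per length, as CPM (library-scaled counts) per kilobase of exon. Within the nuclear members the order of the complexes was III (mean over mice of the median member 82.6 ± 4.75, SD, n = 20), IV (68.9 ± 4.64), II (53.3 ± 3.27), V (51.2 ± 3.28) and I (46.8 ± 4.37). Complexes II and V differed by less than 1 SD, and with the length of the principal transcript in place of all exons the order was III, IV, V, I and II. In complex I, Ndufb10 had the highest level of the nuclear members at 113 and Ndufb2 the lowest at 6.30. In complex II, the flavoprotein gene Sdha had 111.8 and Sdhc, 1 of its membrane anchors, 23.2. In complex III, Uqcr11 had 129 and Uqcrq 36.0. In complex IV, Cox8a had 374 and Cox6a2 0.745, the widest span of any complex. In complex V, Atp5a1 and Atp5b, which encode the alpha and beta subunits of the catalytic head, had 309 and 297, and Atp5l had 4.01. Annotated exons of Atp5l add up to 6443 bases and its principal transcript to 544, and its level with the latter was 47.5, so its place in this order rests on the length used. By the principal transcript the highest members of complexes III, IV and V were Uqcrh (286), Cox4i1 (433) and Atp5b (657), and the lowest of complexes III and V were Uqcrfs1 (42.8) and Atp5s (8.06). All of mt-Nd1 (9152), mt-Cytb (11284) and mt-Co1 (14988) were above every nuclear member.

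**Figure D2:**
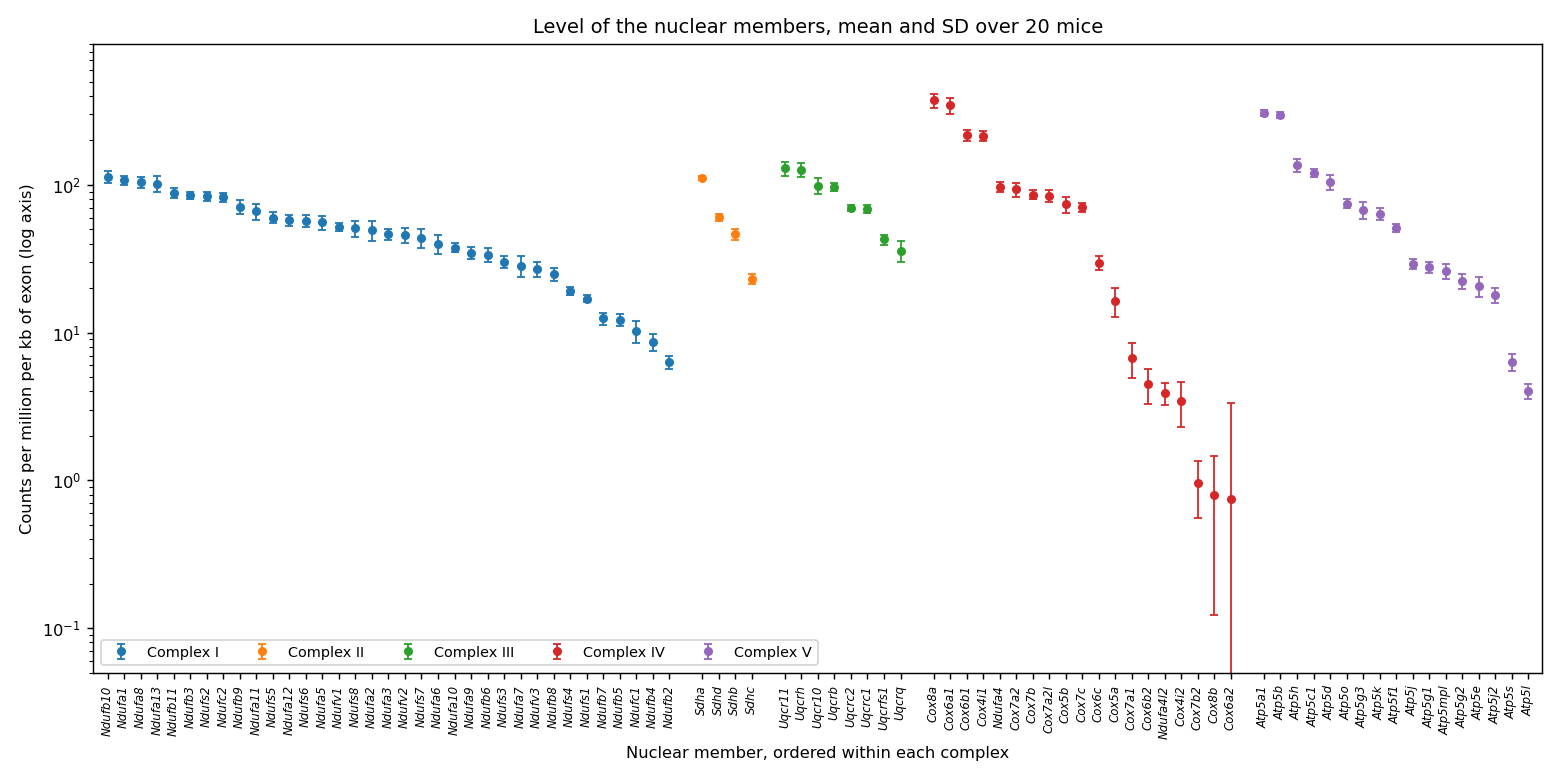
Level of the 83 nuclear members in CPM per kilobase of exon (log axis), ordered within each complex; points are means and bars 1 SD over 20 mice. The bar of Cox6a2 runs below the axis because its mean of 0.745 rests on 1 library.

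Some subunits of complex IV have isoforms that other tissues prefer, and in the cerebellum the common form had the higher level in each pair. Cox4i1 stood at 214 ± 16.6 (SD, n = 20) and Cox4i2, the lung form, at 3.47 ± 1.18. Cox6a1, the common form, stood at 345 ± 43.7, and Cox6a2, the form of heart and skeletal muscle, at 0.745 ± 2.60. Cox7a2 stood at 93.5 ± 10.1 and Cox7a1, also a form of heart and muscle, at 6.74 ± 1.80. Cox8a stood at 374 ± 39.6 and Cox8b at 0.794 ± 0.671. Testis forms were low as well, with Cox6b2 at 4.50 ± 1.19 and Cox7b2 at 0.955 ± 0.399. Ndufa4 stood at 97.2 ± 7.67 and Ndufa4l2 at 3.91 ± 0.679. Among the 3 genes for the identical mature c subunit of the ATP synthase ring, Atp5g3 had 67.4 ± 8.86, Atp5g1 27.7 ± 2.49 and Atp5g2 22.3 ± 2.53 (SD, n = 20). The order of the latter pair turns with the length of the principal transcript, by which Atp5g2 had 51.1 and Atp5g1 28.8.

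One library decided the muscle isoform. Cox6a2 had 113.4 normalized counts in 304Q/304Q mouse 5 at 12 months and 0 to 7.5 in the other 19 libraries. The summed level of 11 skeletal muscle markers was 4550 normalized counts in that library, against 40.1 to 106 in WT/WT at 12 months, 39.9 to 63.8 in the other 304Q/304Q mice at 12 months, 50.4 to 77.5 in WT/WT and 40.6 to 230 in 304Q/304Q at 2 months. The myosin genes Myh2 and Myh4 were at 0 in both WT/WT groups. Cox7a1 had 72.3 and Cox8b 10 normalized counts in it, against 33.5 to 86.6 and 0 to 9.3 in the other libraries. The part of muscle RNA in other members' values was not tested. Where leaving this library out changed a count of members, that count is given beside the result.

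The libraries differed in how they split between the 2 genomes before any comparison of groups. The 13 mitochondrially encoded members took 5.64 to 7.93% of all counts and the 83 nuclear members 0.850 to 1.11%. In WT/WT mice 1 to 5 at 2 months the mitochondrial share was 7.34, 7.06, 7.74, 6.17 and 5.83%, and the nuclear share 0.850, 0.912, 0.894, 1.03 and 1.03%. In 304Q/304Q mice at 2 months the shares were 6.22, 6.36, 6.72, 7.76 and 7.93% and 1.03, 1.03, 1.0, 0.968 and 0.894%. In WT/WT mice at 12 months they were 7.66, 5.73, 5.72, 6.01 and 5.67% and 0.878, 1.02, 1.11, 1.06 and 1.04%. In 304Q/304Q mice at 12 months they were 6.97, 7.25, 7.66, 7.48 and 5.64% and 1.02, 0.935, 0.996, 0.927 and 0.995%. Within the first 3 groups, the mice with the highest mitochondrial shares had the lowest nuclear shares, and WT/WT mouse 1 at 12 months stood apart from its 4 group mates in both. Group means of the mitochondrial share were 6.83 ± 0.804, 7.0 ± 0.799, 6.16 ± 0.851 and 7.0 ± 0.801% (SD, n = 5 each) in the order of the groups above, and all groups overlapped.

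Cytosolic ribosomal protein genes differed along with this split in the WT/WT groups and in 304Q/304Q at 2 months. These genes, which are also short and abundant, took 0.757% of counts in WT/WT mouse 1 at 12 months and 0.909 to 1.01% in its group mates. At 2 months they took 0.662 to 0.717% in WT/WT mice 1 to 3 and 0.830 to 0.837% in mice 4 and 5. In 304Q/304Q mice 1 to 5 at 2 months they took 0.837, 0.822, 0.826, 0.795 and 0.691%. Mice 4 and 5 of that group had the highest mitochondrial shares. In 304Q/304Q at 12 months this did not hold, since mouse 5, with the lowest mitochondrial share, had 0.907% within a range of 0.831 to 0.972%. Trends with GC content and transcript length took between 0.746% and 26.1% of the variance of a library's log counts around the mean of all libraries, with the highest value in WT/WT mouse 3 at 12 months and 22.9% in WT/WT mouse 1 at 2 months. Their part in the members' differences is given below by fits with these trends removed.

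**Figure D3:**
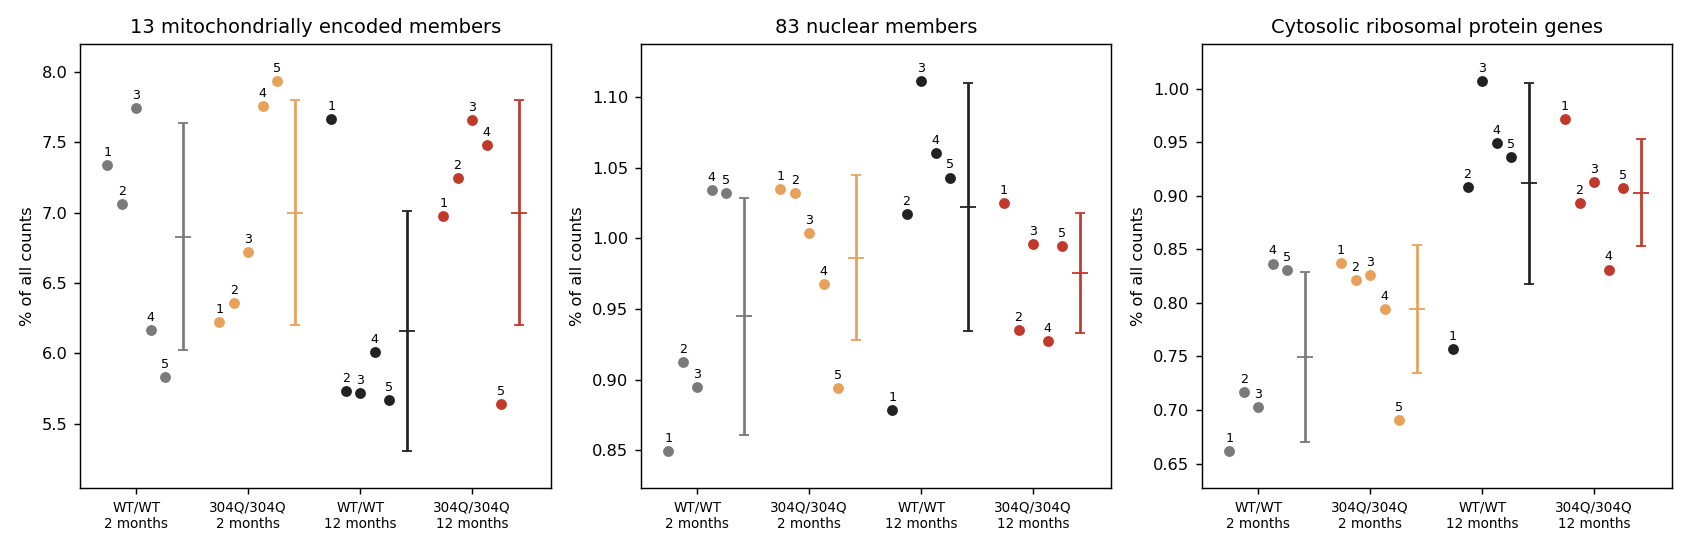
Percentage of all counts on the mitochondrially encoded members (left), the nuclear members (middle) and cytosolic ribosomal protein genes (right) in each mouse, with the replicate number above each point and the mean ± SD (n = 5) beside each group; the axes do not start at 0. WT/WT mouse 1 at 12 months has 7.66% mitochondrial and 0.878% nuclear counts, outside the range of its 4 group mates.

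The first comparison asked whether the genotypes differed at 2 months, an age the study calls pre-symptomatic. With edgeR's quasi-likelihood test 0 of 89 members passed an adjusted p of 0.05, where 0.0494% of all genes did. An unadjusted p under 0.05 was found for 1 member, where 5.55% of all genes had one, and DESeq2 also called 0 members, where it called 0.181% of all genes. The median log2 fold change was 0.04 over the 79 nuclear and 0.03 over the 10 mitochondrially encoded members, against -0.00165 over all genes. The member with the lowest p was Cox6c, a small nuclear subunit of complex IV. It had 1226, 1309, 1406, 1567 and 1487 normalized counts for WT/WT mice and 1548, 1656, 1761, 1636 and 1467 for 304Q/304Q mice. The groups overlapped, with a log2 fold change of 0.20 ± 0.07 (SE, edgeR adjusted p = 0.754). The 4 other tested members with the largest changes in size were Ndufa4l2 (0.23 ± 0.17), Atp5e (0.23 ± 0.12), Uqcr10 (0.14 ± 0.09) and Atp5s (-0.13 ± 0.13), all with an edgeR adjusted p of at least 0.883.

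At 12 months, an age the study calls symptomatic, the medians of the 2 genomes' members lay on opposite sides of 0, yet no member passed. The count was 0 of 89, where 12.5% of all genes passed, and 24 members had an unadjusted p under 0.05, where 27.3% of all genes had one. DESeq2's Wald test called 1 member, Cox5a, where it called 14.5% of all genes. Among the nuclear members 71 of 79 were lower in 304Q/304Q, where 6181 of 12153 genes were, with a median log2 fold change of -0.11. By complex the medians were -0.11 in I, -0.04 in II, -0.11 in III, -0.15 in IV and -0.10 in V, against -0.00386 over all genes. All 10 tested mitochondrially encoded members were higher, with log2 fold changes from 0.07 to 0.35 and a median of 0.29. In no member were the groups of 5 mice apart without overlap, where 8.94% of all genes had groups that did not overlap.

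The nuclear members with the lowest p at 12 months were Ndufb7, Cox5a and Atp5d. Ndufb7, an accessory subunit of complex I, had 782.9, 872.1, 970.7, 821.5 and 887.1 normalized counts in WT/WT and 812.1, 694.5, 730.2, 753.3 and 762.9 in 304Q/304Q. Only 304Q/304Q mouse 1 and WT/WT mouse 1 kept the groups from being apart, and the log2 fold change was -0.21 ± 0.07 (edgeR adjusted p = 0.0711). Cox5a, an accessory subunit of complex IV, had 451.1, 655.1, 672.4, 669.0 and 629.5 in WT/WT and 433.3, 317.9, 478.9, 474.2 and 640.4 in 304Q/304Q, so that WT/WT mouse 1 and 304Q/304Q mouse 5 each sat inside the other group. Its log2 fold change was -0.39 ± 0.14 (edgeR adjusted p = 0.0735). Atp5d, the delta subunit of the ATP synthase's central stalk, had a log2 fold change of -0.18 ± 0.07 (edgeR adjusted p = 0.0757). The nuclear member with the largest change in size was Cox6b2, the testis form, at -0.53 ± 0.23 (edgeR adjusted p = 0.131) from means of 78.4 ± 24.4 and 54.5 ± 15.7 normalized counts (SD, n = 5).

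Of the mitochondrially encoded members, mt-Nd1, mt-Nd5 and mt-Nd6, all membrane subunits of complex I, had an unadjusted p under 0.05 at 12 months. mt-Nd1 had 138911, 94732, 95984, 104353 and 95653 normalized counts for WT/WT mice and 125630, 140506, 153570, 154467 and 86838 for 304Q/304Q mice. WT/WT mouse 1 was as high as the 304Q/304Q mice and 304Q/304Q mouse 5 lower than every WT/WT mouse, and the log2 fold change was 0.32 ± 0.14 (edgeR adjusted p = 0.140). For mt-Nd5 it was 0.31 ± 0.13 (edgeR adjusted p = 0.138) and for mt-Nd6, the only member on the light strand, 0.28 ± 0.12 (edgeR adjusted p = 0.129). Exons of mt-Nd5 and mt-Nd6 overlap on opposite strands. The use of strand in counting is not known, so their counts may not be independent. Values for mt-Co2 (0.35 ± 0.23) and mt-Co3 (0.32 ± 0.21), 2 core subunits of complex IV, had edgeR adjusted p of 0.349 and 0.335 and rest on few, ambiguous counts. The other 4 were mt-Nd2 (0.27 ± 0.19), mt-Nd4 (0.10 ± 0.10), mt-Co1 (0.11 ± 0.09) and mt-Atp6 (0.32 ± 0.29), with edgeR adjusted p of 0.388 to 0.574. The smallest change was that of mt-Cytb, the core of complex III, at 0.07 ± 0.06 (edgeR adjusted p = 0.421).

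WT/WT mouse 1 at 12 months decided the count. Without it 22 of 89 members passed in edgeR, where 17.1% of all genes did, 18 nuclear members lower and 4 mitochondrially encoded members higher in 304Q/304Q. They included Ndufs8, a core iron-sulfur subunit of complex I (log2 fold change -0.33, edgeR adjusted p = 0.00553), Atp5d (-0.23, 0.0130), Uqcr10 of complex III (-0.32, 0.0136), Cox5a (-0.48, 0.0168), mt-Nd5 (0.44, 0.0159) and mt-Nd1 (0.44, 0.0269). The medians without it were -0.15 over the nuclear and 0.44 over the mitochondrially encoded members. Without 304Q/304Q mouse 5 at 12 months, the library with muscle RNA, 4 members passed, Cox5a and Cox5b lower and mt-Nd6 and mt-Nd1 higher, where 13.6% of all genes passed. Without WT/WT mouse 1 at 2 months 2 passed, Atp5d and Ndufb7, where 13% of all genes did. With the GC and length trends removed the medians were -0.04 and 0.11, and 4 members passed, where 13.7% of all genes did. Of these Cox5a (-0.48) and mt-Nd4 (-0.11) were lower, and Cox7a2l (0.18) and Atp5a1 (0.10) higher. With surrogate variables in edgeR the mitochondrial median was -0.04, on the other side of 0. The 1 member that passed in that fit was mt-Nd2, lower at -0.13 (edgeR adjusted p = 0.0373), where 1249 of 12153 genes passed.

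Markers of several cell types differed in the same comparison, those of Purkinje cells, neurons with a high demand for ATP, among them. Of 9 markers 8 passed, all lower, and their summed level was 102037 to 112460 normalized counts for WT/WT mice and 79961 to 87463 for 304Q/304Q mice, with no marker at 0. Of 7 markers of inhibitory interneurons 4 passed, all lower. Of 12 markers of myelinating oligodendrocytes 5 passed, all lower, with a median log2 fold change of -0.35 over the list and summed levels of 75708 to 86137 against 49862 to 68914 that did not overlap. Of 5 genes of blood 4 passed, all lower, with a median of -1.0 and sums of 1649 to 3503 against 1367 to 1589 that did not overlap either. Astrocytes and mural cells each had 2 markers lower past the test and endothelial cells 1, while granule cells and microglia each had 1 higher, and 0 of 5 tested markers of meninges passed. Choroid plexus markers, of which 0 of 4 tested passed, summed to 2143 to 41033 normalized counts for WT/WT mice and 1569 to 29552 for 304Q/304Q mice. The part of these cells in the members' values was not tested.

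**Figure D4:**
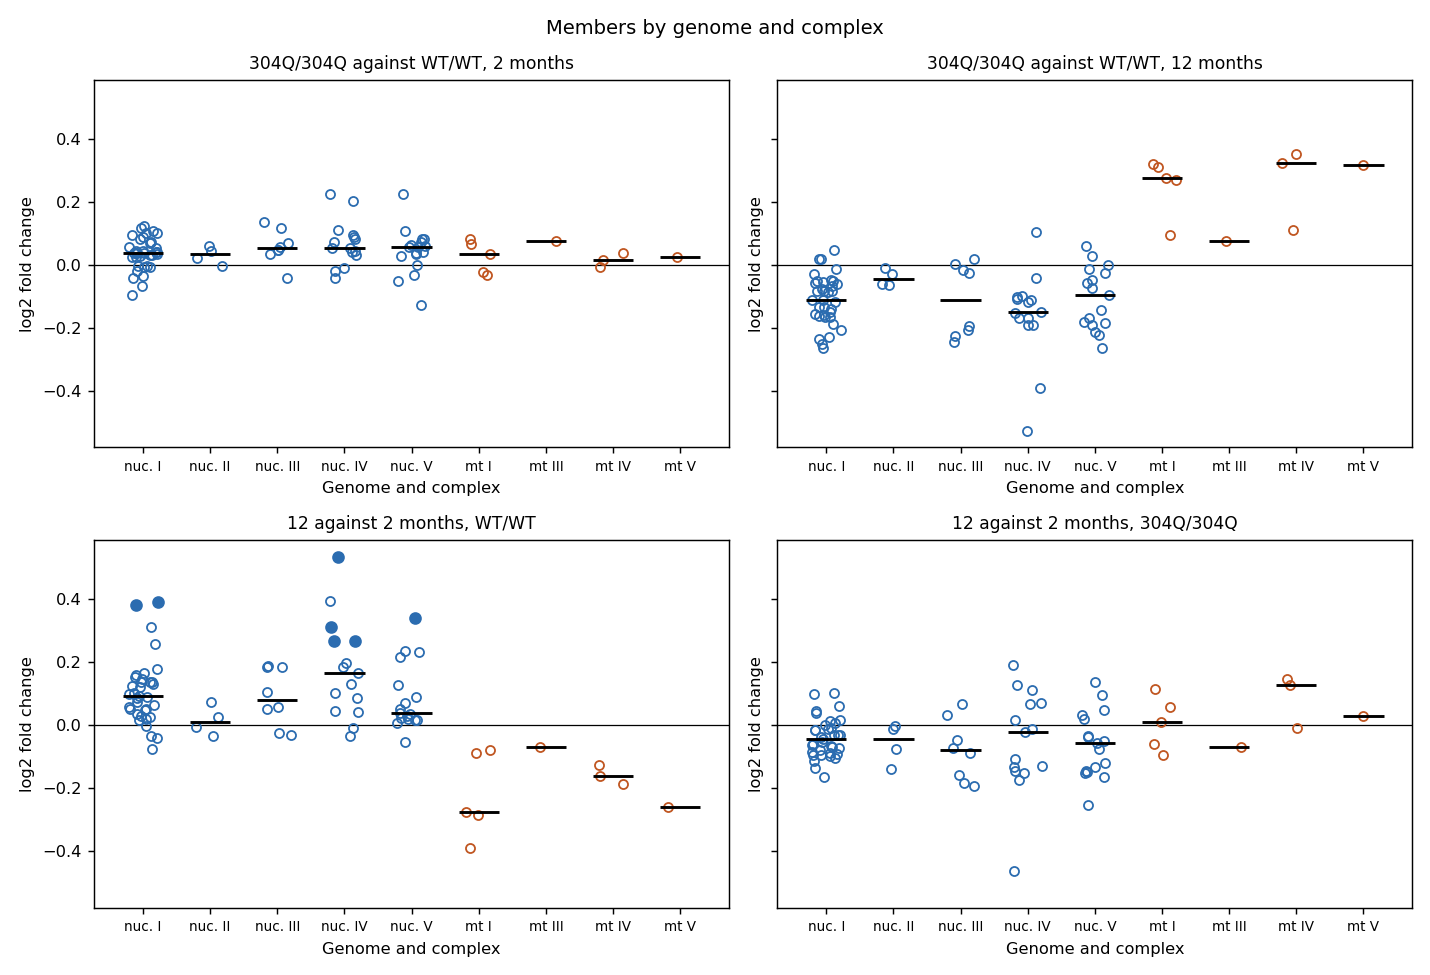
Log2 fold change of the 79 nuclear (blue) and 10 mitochondrially encoded (orange) members tested, by complex, in 4 comparisons; each point is 1 gene, filled where the edgeR adjusted p was at most 0.05, and bars are medians. At 12 months the nuclear members lie mostly below 0 and the mitochondrially encoded members above it, with no filled point.

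From 2 to 12 months in WT/WT mice, 7 nuclear members rose and none fell. Against 11.5% of all genes (6.08% higher), 7 of 89 members passed, and 16 had an unadjusted p under 0.05, where 27.5% of all genes had one. DESeq2's Wald test called 8 members, where it called 13.9% of all genes. Of the 7, Ndufa6 and Ndufa7 belong to complex I, Cox5a, Cox5b, Cox6a1 and Cox8a to complex IV and Atp5d to complex V, and 0 belong to complexes II or III. The median log2 fold change was 0.09 over the nuclear members, of which 68 of 79 were higher. Over all genes it was 0.00175, and 6121 of 12153 were higher. By complex the nuclear medians were 0.09 in I, 0.01 in II, 0.08 in III, 0.16 in IV and 0.04 in V. The 10 mitochondrially encoded members were lower, with a median of -0.17, and 0 passed. Cox5a alone also reached a log2 fold change of 0.5, the limit for a DEG, which 2.58% of all genes passed. The groups of mice overlapped in all 7, where 6.57% of all genes had groups that did not. This comparison shares the WT/WT mice at 12 months with the comparison of genotypes at that age, so their values are not independent.

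Atp5d (chr10:80138632-80145818 of GRCm38, plus strand) had 2166, 2429, 2668, 2832 and 2779 normalized counts at 2 months and 2783, 3279, 3525, 3214 and 3487 at 12 months. Mouse 1 at 12 months lay among the young mice and the other 4 above them all. It rose by 0.34 ± 0.07 on the log2 scale (edgeR adjusted p = 0.00256), and its exons overlap those of Cbarp on the other strand. In 304Q/304Q mice it had 2701, 2781, 2812, 2895 and 2680 at 2 months and 2943, 2666, 3002, 2897 and 2844 at 12 months, a log2 fold change of 0.05 ± 0.07. Cox8a (chr19:7215153-7217616, minus strand), a small membrane subunit of complex IV, had 2800, 2911, 3027, 3290 and 3366 at 2 months and 3348, 3536, 4021, 3866 and 3777 at 12 months. Again only mouse 1 was within the range of the young mice, and the gene rose by 0.27 ± 0.06 (edgeR adjusted p = 0.0101).

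Ndufa6 (chr15:82350140-82354322, minus strand), an accessory subunit of complex I with an LYR motif, had 784.0, 802.4, 773.5, 1048 and 1067 normalized counts at 2 months and 991.2, 1135, 1252, 1229 and 1270 at 12 months. The young mice split into 3 low and 2 high values, as their mitochondrial shares did in reverse, and the gene rose by 0.39 ± 0.10 (edgeR adjusted p = 0.0146). Cox5a (chr9:57521274-57532426, plus strand) had 333.7, 364.5, 423.5, 526.0 and 474.3 at 2 months and 451.1, 655.1, 672.4, 669.0 and 629.5 at 12 months, and rose by 0.54 ± 0.14 (edgeR adjusted p = 0.0178). Here 4 of 5 old mice were above every young mouse and mouse 1 was not. The other 3 were Ndufa7 (0.38 ± 0.10, edgeR adjusted p = 0.0205), Cox6a1 (0.31 ± 0.09, 0.0210) and Cox5b (0.27 ± 0.09, 0.0487).

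**Figure D5:**
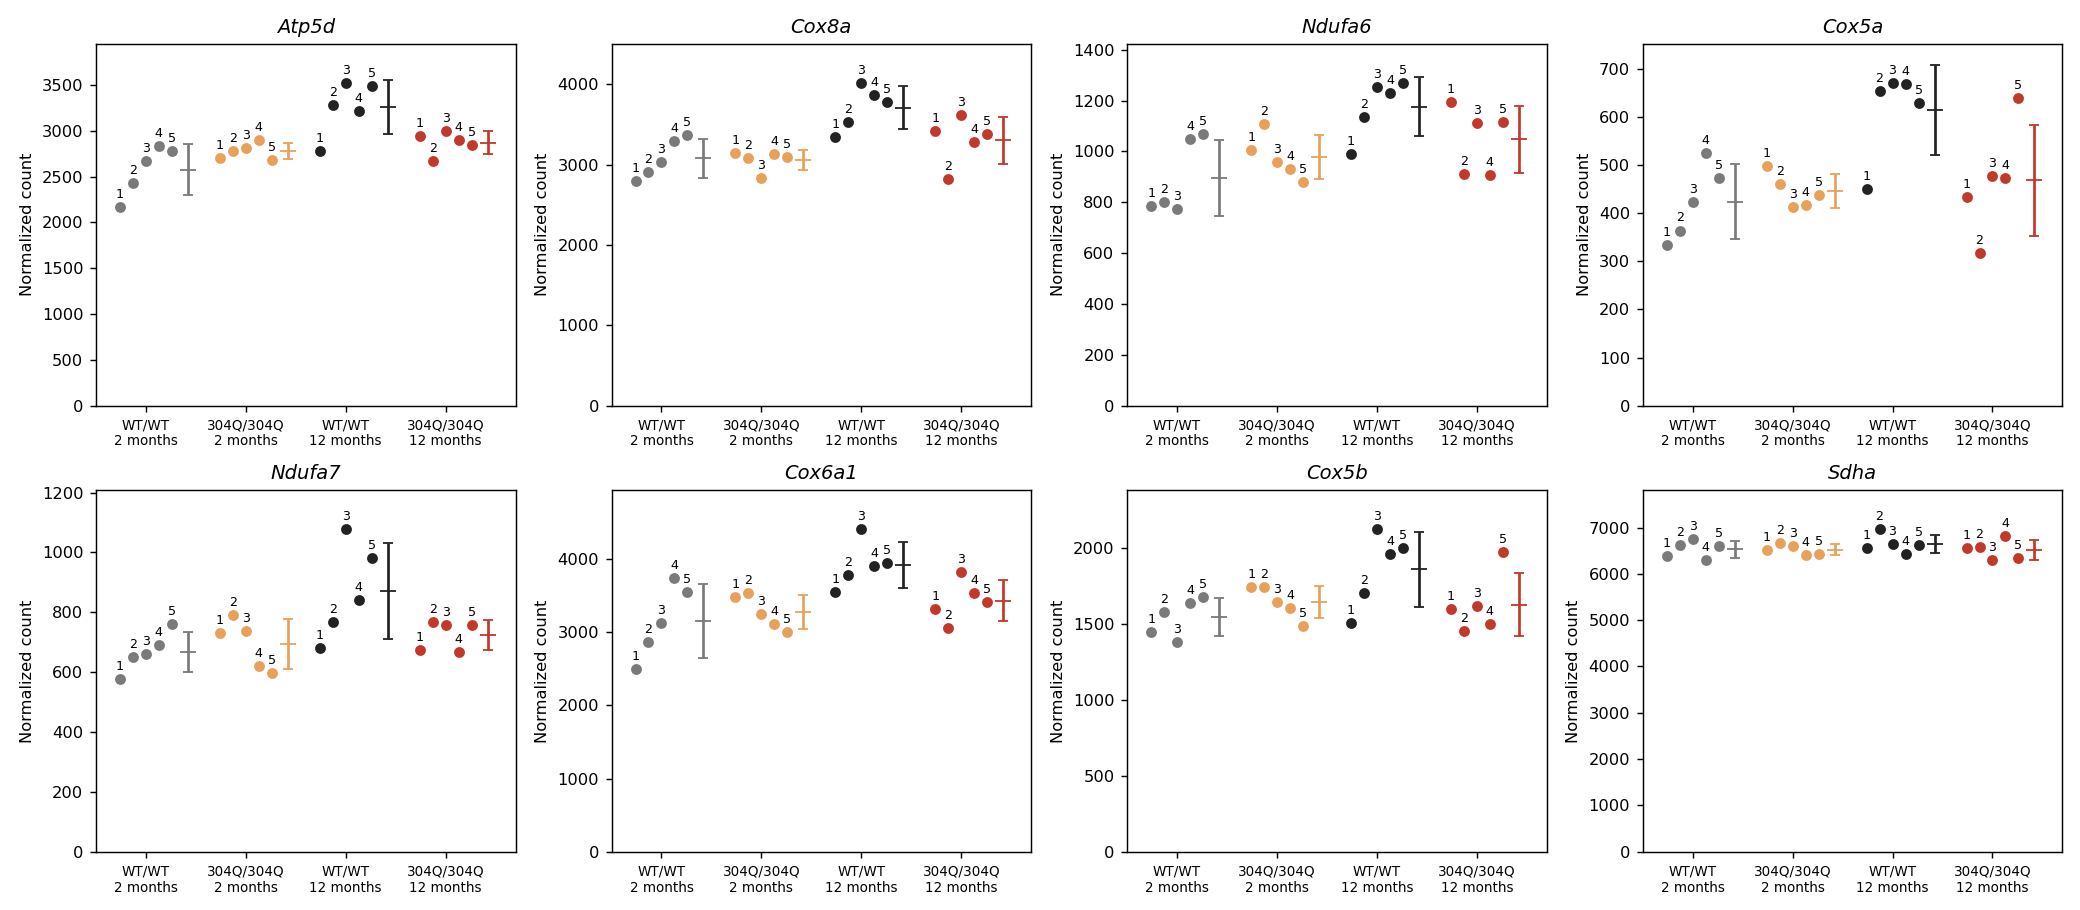
Normalized counts of the 7 members that rose from 2 to 12 months in WT/WT mice, and of Sdha, in each mouse, with the replicate number above each point and the mean ± SD (n = 5) beside each group; axes start at 0. For Atp5d 4 of 5 WT/WT mice at 12 months are above all at 2 months, and Sdha stays between 6292 and 6969 in all 20 mice.

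These calls differed in how far they depended on single libraries and on composition. Over the main fit and 32 others, Atp5d passed in 33 of 33, Cox8a in 31, Ndufa6 and Cox5a in 30, Cox6a1 in 27, Ndufa7 in 26 and Cox5b in 10. Without WT/WT mouse 1 at 2 months 2 members passed (Atp5d and Cox8a), where 6.24% of all genes did. Without mouse 2 at 2 months or mouse 3 at 12 months 3 passed (6.94% and 5.97% of all genes), and without mouse 4 or mouse 5 at 2 months 10 did (14.7% and 13.8%). Without WT/WT mouse 1 at 12 months 22 passed, 18 nuclear members higher and mt-Nd2, mt-Nd5, mt-Nd1 and mt-Co1 lower, where 20.9% of all genes passed. Cytosolic ribosomal protein genes were higher in the same comparison, 42 of 78 of them past the test and 0 lower. Cell-type markers moved with age as well. Of 8 tested microglia markers 6 were higher past the test, with sums of 1723 to 2029 normalized counts at 2 months and 2577 to 3155 at 12 months, of 10 granule cell markers 5 were lower, with sums of 98001 to 110547 and 84493 to 91506, and neither pair of ranges overlapped. Past the test, 4 of 12 oligodendrocyte, 2 of 9 astrocyte and 1 of 5 tested meninges markers were lower. Higher were 2 of 9 Purkinje cell, 2 of 4 tested choroid plexus and 2 of 5 blood markers. Choroid plexus sums differed between single libraries. They were 2021 to 2286 normalized counts in WT/WT at 2 months, and 9157, 41033, 2143, 2324 and 19781 in mice 1 to 5 at 12 months. Mice 3 and 4 thus lay within or just above the range of the young mice, and the higher sums came from mice 1, 2 and 5. Of 7 inhibitory interneuron markers 3 were higher and 1 lower. The part of these cells in the members' values was not tested. With the GC and length trends removed the median of the nuclear members was 0.00437, and 5 members passed, Cox5a (0.60), Ndufa7 (0.31), Ndufa6 (0.28), Atp5d (0.16) and mt-Nd4 (0.10), where 8.03% of all genes did. Cox8a, Cox6a1 and Cox5b did not pass in that fit. With surrogate variables in DESeq2 and edgeR both medians lay on the other side of 0, at -0.0260 and -0.0218 over the nuclear and at 0.0539 and 0.0573 over the mitochondrially encoded members.

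In 304Q/304Q mice 0 of 89 members passed from 2 to 12 months in edgeR, where 7.26% of all genes did, and 10 had an unadjusted p under 0.05, where 19.1% of all genes had one. DESeq2's Wald test also called 0 members, where it called 8.74% of all genes. The median was -0.05 over the nuclear and 0.02 over the mitochondrially encoded members. Cox7a2l was the only member whose groups did not overlap, where 7.8% of all genes had groups apart in either direction. It had 1742, 1784, 1685, 1779 and 1571 normalized counts at 2 months and 2063, 1960, 2042, 1901 and 1800 at 12 months, a log2 fold change of 0.19 ± 0.06 (edgeR adjusted p = 0.0693). It passed in 8 of 33 fits, with log2 fold changes from 0.16 to 0.21 over all of them. It was the 1 member that passed without 304Q/304Q mouse 5 at 12 months, the library with muscle RNA (0.21, edgeR adjusted p = 0.0451), where 7.08% of all genes did, and the 1 that passed with only the groups compared (0.19, edgeR adjusted p = 0.0347), where 7.8% did. With the GC and length trends removed it was 1 of 4 (0.20, edgeR adjusted p = 0.00467), where 9.31% of all genes passed. The other members with large changes in size were Cox6b2 (-0.46 ± 0.22), Atp5e (-0.26 ± 0.12), Uqcr10 (-0.19 ± 0.09) and Uqcrh (-0.18 ± 0.09), with edgeR adjusted p of 0.222 to 0.258. With surrogate variables 10 members passed in edgeR and 9 in DESeq2, where 12.3% and 13.7% of all genes passed. Among them were Cox7a2l (0.16, edgeR adjusted p = 0.0281), mt-Nd2 (-0.18, 0.0003), Uqcrh (-0.19, 0.0095) and Cox6c (-0.18, 0.0182). Cell-type markers moved here too. In the main fit 6 of 9 Purkinje cell, 7 of 12 oligodendrocyte, 3 of 10 granule cell and 2 of 7 interneuron markers passed, all lower. Of 8 tested microglia markers 6 were higher past the test. Of 9 astrocyte markers 4 were lower and 1 higher, and of 7 endothelial markers 1 was lower. The part of these cells in the members' values was not tested.

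The change with age was compared between the genotypes by the interaction term. No member passed in edgeR, where 1.95% of all genes did, and 13 had an unadjusted p under 0.05, where 15.9% of all genes had one. DESeq2's Wald test called 1, Cox6c, where it called 3.25% of all genes. The change with age was lower in 304Q/304Q than in WT/WT for 73 of 79 nuclear members, with a median difference of -0.15 on the log2 scale. It was higher for 9 of 10 mitochondrially encoded members, with a median of 0.29. Over all genes it was lower for 6302 of 12153, with a median of -0.00997. The term is built from the same mice as the comparisons above, so its values are not independent of theirs. With surrogate variables the mitochondrial median turned, to -0.107 in DESeq2 and -0.112 in edgeR. Cox6c had the lowest p, with a difference of -0.37 ± 0.11 (edgeR adjusted p = 0.0677), from means of 1399, 1613, 1604 and 1428 normalized counts in WT/WT and 304Q/304Q at 2 months and WT/WT and 304Q/304Q at 12 months. The largest differences in size were those of Cox6b2 (-0.51 ± 0.31), Atp5e (-0.49 ± 0.16), Cox5a (-0.46 ± 0.20), Uqcr10 (-0.38 ± 0.13) and Ndufa4l2 (-0.38 ± 0.23), with edgeR adjusted p of 0.135 to 0.435. Without WT/WT mouse 1 at 12 months 5 passed, Cox6c, Atp5d, Uqcr10, Atp5e and Cox6b1, where 4.59% of all genes did. Without 304Q/304Q mouse 5 at 2 months 2 passed, Cox6c and Atp5e, where 3.09% did. Among cell-type markers, 5 of 9 for Purkinje cells, 2 of 7 for interneurons and 2 of 9 for astrocytes passed the interaction, all lower. So did 2 of 5 blood markers and 1 of 12 oligodendrocyte markers, also lower. The part of these cells in the members' values was not tested.

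Sdha, the flavoprotein subunit of complex II and 1 of the housekeeping genes of the study's qRT-PCR, changed least of all tested members, by its largest change in size over the 4 comparisons. It had group means of 6533 ± 186, 6524 ± 117, 6644 ± 199 and 6517 ± 209 normalized counts (SD, n = 5). Its log2 fold changes were -0.00200, -0.03, 0.02 and -0.00141 in the 4 comparisons, with standard errors of 0.04.

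Genes that build and supply the chain were counted in lists of their own, to be read against the 12.5% of all genes that passed between genotypes at 12 months (7.3% of all genes lower) and the 11.5% and 7.26% that passed with age in WT/WT and in 304Q/304Q. Of 16 tested assembly factors of complex I, 2 passed at 12 months, both lower in 304Q/304Q. This is the same share as over all genes in either direction, and a larger one than the 7.3% lower, but on few genes. The 2 were Ecsit (log2 fold change -0.39 ± 0.08, edgeR adjusted p = 0.00251) and Ndufaf5 (-0.37 ± 0.11, 0.0280). For Ndufaf5 every 304Q/304Q mouse was below every WT/WT mouse. Of the assembly factors of complexes II, III, IV and V (3, 6, 17 and 5 tested), 0 passed in edgeR in any comparison. Of 26 tested genes for copying, transcribing and processing mitochondrial DNA and RNA, 1 was lower at 12 months. That is a smaller share than over all genes, and the gene was the mitochondrial RNA polymerase Polrmt (-0.32 ± 0.10, edgeR adjusted p = 0.0271). Of 11 regulators of mitochondrial biogenesis 2 were lower, a larger share than the 7.3% over all genes but on few genes. They were Nrf1 (-0.36 ± 0.10, edgeR adjusted p = 0.0197), whose protein binds the letters searched above, and Pprc1 (-0.47 ± 0.13, 0.0208), a coactivator. With age in WT/WT, Mgme1, a nuclease of mitochondrial DNA, rose by 0.43 on the log2 scale and Supv3l1, an RNA helicase, fell by 0.33. In 304Q/304Q mice Ndufaf5 fell with age by 0.42. At 12 months the medians over the lists were -0.11, -0.04 and -0.03 in the order assembly of complex I, mitochondrial DNA and RNA, and biogenesis.

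Mitochondrial ribosomal proteins, which make the 13 mitochondrially encoded subunits, had 1 higher and 6 lower of 77 at 12 months, a smaller share than the 12.5% of all genes, with a median of -0.11. Among them were Mrpl28 (-0.38 ± 0.10, edgeR adjusted p = 0.0127) and Mrps7 (-0.27 ± 0.07, 0.0163) on the lower side and Mrps5 (0.19 ± 0.06, 0.0425) on the higher. With age in WT/WT 3 of 77 were higher (Mrps12, Mrps24 and Mrpl12) and 1 lower (Mrps5). Of 17 genes of the citric acid cycle and pyruvate dehydrogenase, Idh3a (0.17 ± 0.05, edgeR adjusted p = 0.0185) and Dlat (0.21 ± 0.07, 0.0343) were higher and Ogdh (-0.13 ± 0.04, 0.0495) lower at 12 months. Idh3a and Dlat fell with age in WT/WT, which shares the WT/WT mice at 12 months, by 0.18 and 0.24 on the log2 scale, and in 304Q/304Q mice Ogdh fell by 0.15. Of 14 carriers and porins only Mpc2 of the pyruvate carrier passed at 12 months, at -0.34 ± 0.09 (edgeR adjusted p = 0.0162). With age Slc25a22, a glutamate carrier, fell by 0.14 in WT/WT mice and by 0.25 in 304Q/304Q, and Ckmt1, the mitochondrial creatine kinase, rose by 0.16 in WT/WT.

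Glycolysis, which feeds the chain, held the largest change past the test at 12 months among these lists. Aldoc, the aldolase of Purkinje cells and astrocytes, had means of 34290 normalized counts for WT/WT mice and 24276 for 304Q/304Q mice at 12 months, with groups that did not overlap, a log2 fold change of -0.50 ± 0.04 (edgeR adjusted p = 1.4e-08) and the 1 passing interaction among the pathway lists (-0.42, 0.000344). Besides it Ldha was lower and Gpi1 and Pfkp higher, with log2 fold changes of -0.14, 0.18 and 0.15, among 16 genes tested. With Aldoc this is a larger share than the 12.5% of all genes, but on few genes. With age in WT/WT, which shares the WT/WT mice at 12 months, 3 were higher and 2 lower (Ldha, Pfkl, Pfkp, Ldhb and Hk1). In 304Q/304Q 1 was higher and 2 lower with age (Aldoc, Ldha and Gpi1). Of all genes 11.5% and 7.26% passed there. Of the 8 tested subunits that the name rule does not reach, Cycs and Cyc1 among them, 0 passed in edgeR in any comparison.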

How the data were processed

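Per the labels and the study's methods, the authors aligned paired reads to GRCm38 with STAR and counted them per Ensembl gene, and the deposited values are raw counts. The labels give STAR version 2.4.5b, and the use of strand in counting is not given in the sources used here. Members and gene lists were chosen with earlier results of these data known. Counts were scaled by TMM. Genes averaging 50 or more counts per library (12153 genes with 99.3% of the counts) were tested with edgeR 4.0.16 (glmQLFit and glmQLFTest, 1 mean per group over 20 libraries) under R 4.3.3, with Benjamini-Hochberg adjustment over all tested genes. A gene passed at an adjusted p of at most 0.05, and a DEG also changed by 0.5 or more on the log2 scale. The common biological coefficient of variation was 0.113, and the p-values measure the spread between these mice. Alternatives used DESeq2 1.42.0, surrogate variables from sva 3.50.0, other filters and scalings, removal of GC and length trends (splines with 5 degrees of freedom), and leaving out each mouse. Named were members that passed, the 5 largest changes where fewer passed, the 13 mitochondrially encoded members, tissue isoforms and their partners, the highest and lowest level of each complex, Sdha, and up to 3 genes per list by lowest p. Cox8c and a second Atp5o identifier were not analysed here. Others were named where a setting or a count turned on them, and were chosen after their values were seen. Exons of 12 members overlap another gene on the same strand and of 29 on the other. Scripts were tested on simulated counts.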

Additional observations from a re-analysis of the deposited data

Results flagged for a closer look

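A value was listed here when the highest or lowest of 5 mice lay apart from the other 4 by more than 0.71 of the group's range, Dixon's limit. Of 184 groups of 5 values, 17 had such a value, and chance gives about 1 in 20.

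WT/WT mouse 1 at 12 months held most of them. Its mitochondrially encoded members took 7.66% of counts, against 5.67 to 6.01% in its group mates, and their counts were 8.73 times those of the nuclear members, against 5.15 to 5.67 times. It had 138911 normalized counts of mt-Nd1 (others 94732 to 104353), 118072 of mt-Nd2 (62167 to 65292), 96995 of mt-Nd4 (67869 to 75672), 132353 of mt-Nd5 (82473 to 95146) and 387511 of mt-Co1 (284131 to 293690). Among the low mitochondrially encoded members it had 238.3 of mt-Co2 (123.9 to 156.5), 286.2 of mt-Atp6 (131 to 164.5) and 75.7 of mt-Atp8 (16.7 to 22.8). Nuclear Cox5a had 451.1, below the 629.5 to 672.4 of the others.

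The 304Q/304Q mouse 5 at 12 months, the library with muscle RNA, had 113.4 normalized counts of Cox6a2 (others 0 to 7.5), 97.4 of mt-Co3 (152.6 to 170) and 282322 of mt-Co1 (341944 to 354545). At 2 months, 304Q/304Q mouse 3 had 2830 of Cox8a (3088 to 3147), 304Q/304Q mouse 5 had 440.7 of Atp5g2 (517.2 to 542.4), and WT/WT mouse 3 had 2.3 of Cox6a2 where its group mates had 0.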

How the results depend on the processing

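The count of members that passed depended on the fit. Between genotypes at 12 months it was 0 in edgeR, 1 with no filter on low counts, 1 in DESeq2, 1 in edgeR with surrogate variables, 4 with GC and length trends removed and 3 with these and the replicate block. With age in WT/WT it was 7, and 4 each with surrogate variables in DESeq2 and in edgeR, with only the groups compared, and with trends removed and the replicate block. With age in 304Q/304Q it was 0, 1 with no filter, 1 with only the groups compared, and 9 and 10 with surrogate variables in DESeq2 and edgeR. It was 4 with trends removed and 3 with these and the block. The member called with no filter, between genotypes at 12 months and here, was Cox6a2 (3.63 and 3.68). It had 113.4 normalized counts in 304Q/304Q mouse 5 at 12 months, the library with muscle RNA, and 0 to 7.5 in all others. For the interaction it was 0, 1 in DESeq2, 1 each with surrogate variables in DESeq2 and edgeR, 2 with trends removed and 1 with these and the block. The replicate block alone gave 6 with age in WT/WT and 0 elsewhere, and the numbers do not pair the mice (4 of 20 same-number pairs correlated over 0.1, and 2 of 20 best with their own number). Leaving out 1 mouse gave 0 to 22, 2 to 22, 0 to 1 and 0 to 5 in the same order. With surrogate variables in DESeq2 and edgeR these turned: mt-Co2 (-0.13, -0.14) and mt-Nd1 (-0.0138, -0.0213) between genotypes at 12 months, the nuclear median with age in WT/WT (-0.0260, -0.0218), and the mitochondrial medians between genotypes at 12 months (-0.0308, -0.0382), with age in WT/WT (0.0539, 0.0573) and for the interaction (both -0.11). This list covers medians and members that passed or changed most in size in the main fit. Outside it, mt-Nd2 was -0.13 between genotypes at 12 months with surrogate variables in edgeR, where it alone passed (edgeR adjusted p = 0.0373). With trends removed mt-Nd4 was -0.11 between genotypes at 12 months and 0.10 with age in WT/WT. These too were on the other side of 0 from the main fit. The cause was not tested. Atxn3 at 2 months passed in DESeq2 (-0.54), with surrogate variables in DESeq2 (-0.51) and edgeR (-0.51), with trends removed (-0.52) and with these and the block (-0.52), and leaving out 1 mouse gave -0.63 to -0.47. Levels of complexes I to V were 80.2, 75.5, 146, 116 and 114 by the principal transcript, chosen after seeing the data. Scaled without mitochondrial genes, those of II to V were 57.4, 88.9, 74.2 and 55.1. That scaling leaves mitochondrial counts out of the library totals, which by itself raises every level. The order of the complexes stayed the same, though these shifts are counted as moved below. Of the results for medians and for members named for passing or size, 378 stayed the same over the settings that kept every mouse. For a single member this means the direction and side of the threshold, for a median a shift below its members' median standard error. Of the rest, 20 lost the call, 14 gained it, 6 moved and 12 turned. Of the counts of members, mitochondrial shares, levels per complex and Atxn3 results, 68 stayed the same, 29 moved and 5 gained the call.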
